A study of Mus musculus with 6 samples.

Results

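The genes described here encode receptors for prostanoids and enzymes that make them, measured in the pancreas of mice with and without Cftr, the anion channel of epithelia whose loss causes cystic fibrosis (CF). They were taken by name from the platform annotation of the arrays: Ptger1 to Ptger4, Ptgfr and Tbxa2r (receptors) and Ptgs1, Ptgs2, Ptgds and Ptgis (synthases). Of these 10 genes, 9 had a probe set in the annotation used here, with 13 probe sets among the 12488 on the array. Ptgs1 had none and was not analysed here. The family was picked with the CF against control contrast of these data in view, in which Ptger3 and Tbxa2r had stood out, so the differences of its members are given as a description.

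The data are 6 one-colour oligonucleotide arrays of pancreatic total RNA, each from 1 mouse. The 3 control mice were gastrin+/-, CFTR+/+ and the 3 CF mice were gastrin+/-, CFTR-/-, so that both groups carried the same gastrin genotype. All were males of 56 to 58 days on a background of 95% black6 and 5% 129Sv, and all had received Peptamen, a liquid diet that protects against blockage of the gut, from the age of 10 days. The labels do not say how the Cftr allele was made, and that of control replicate 1 names the entire pancreas while the others name the pancreas. Replicates 1, 2 and 3 of each group are the titles with no suffix, with B and with P. The arrays had medians of 207.8 to 234.4, a 3'/5' ratio of Gapdh, a sign of RNA quality, of 0.72 to 0.87 except for control replicate 2 at 1.45, and elastase transcripts of acinar cells at the top of the range (Cela1 at 71551 to 112064). With 3 arrays in each group, their number limits how precise the values are.

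Prostanoids are short-lived lipid signals. Phospholipases A2 release arachidonic acid from membranes, the cyclooxygenases encoded by Ptgs1 and Ptgs2 turn it into the common precursor prostaglandin H, and terminal synthases make from it prostaglandin E, prostaglandin D, prostaglandin F, prostacyclin or thromboxane. Each product acts on G protein-coupled receptors: of the receptors for prostaglandin E, those encoded by Ptger2 and Ptger4 raise cyclic AMP, that of Ptger3 mainly lowers it and that of Ptger1 raises calcium. The receptor of Ptgfr binds prostaglandin F, and that of Tbxa2r binds thromboxane and is known from platelets and vascular smooth muscle. In the pancreas, signalling through the Ptger3 receptor is known for restraining insulin release from beta cells.

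Of the receptor genes taken by name, only Ptger3 and Tbxa2r were bright enough to be tested. They lay apart between the groups in opposite directions, so their upstream sequences are shown side by side. Both are the 250 bases before the annotated start, from RefSeq for GRCm38.p6 and read in the direction of the gene: chr3:157566626-157566875, plus strand, for Ptger3 and chr10:81328018-81328267, plus strand, for the first of 2 annotated starts of Tbxa2r. Capitals mark GC boxes (GGGCGG, either strand), the elements bound by Sp1 and its relatives.
Ptger3: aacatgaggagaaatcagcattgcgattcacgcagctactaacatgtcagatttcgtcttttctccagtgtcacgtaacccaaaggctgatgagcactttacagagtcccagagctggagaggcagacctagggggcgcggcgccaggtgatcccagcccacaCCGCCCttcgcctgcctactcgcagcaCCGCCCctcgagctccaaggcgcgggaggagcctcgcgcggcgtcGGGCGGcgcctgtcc
Tbxa2r: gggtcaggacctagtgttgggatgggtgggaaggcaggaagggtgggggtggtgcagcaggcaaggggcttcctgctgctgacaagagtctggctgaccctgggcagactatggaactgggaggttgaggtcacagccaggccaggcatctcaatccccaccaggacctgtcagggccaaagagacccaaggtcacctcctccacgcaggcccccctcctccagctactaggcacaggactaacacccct
The Ptger3 window held 3 GC boxes, 87, 60 and 15 bases before the start, and had a GC content of 62%. The Tbxa2r window had a like GC content of 62.4% and held no GC box. Of all 32851 windows of this length in the RefSeq table, 32.7% held a GC box. Of 9 windows of 8 member genes that were in that table, 4 held one, those of Ptger3, Ptger4, Ptgfr and Ptgs2. Both strands were also searched for the TATA box (TATAAA, in 12.4% of all windows), the CCAAT box (CCAAT, 33.8%), the cAMP response element (TGACGTCA, 1.55%), the AP-1 site (TGANTCA, 6.75%), the STAT site (TTCNNNGAA, 7.02%) and the E-box (CANNTG, 66.2%). A CCAAT box was in 3 member windows (Ptger2, Ptger4 and the second start of Tbxa2r), an AP-1 site in 1 (Ptgds, 35 bases before its start) and an E-box in 7, among them that of Ptger3, 106 bases before its start. The first Tbxa2r window matched none of the 7 motifs. Such matches are letters in a window, and the arrays do not measure what binds there.

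The prostaglandin E receptor gene Ptger3 was higher in every CF mouse than in every control mouse, on both of its probe sets. The brighter one (96588_at) read 1041, 666 and 931 in controls and 2671, 1979 and 2844 in CF, values here and further on being in the order of replicates 1, 2 and 3. The lowest CF value was thus well above the highest control value, and replicate 2 was the lowest of each group. The mean went from 879 ± 193 to 2498 ± 458 (intensity, SD, n = 3 per group), which is 2.86-fold on the floored log2 scale (log2 difference 1.51 ± 0.23 SE, 95% interval 1.00 to 2.03). Set against the control array of the same title suffix, the CF arrays were higher by 1.36, 1.57 and 1.61, so the difference was of similar size in all 3 pairs. Without control replicate 2, the array with the high Gapdh ratio, the difference was 1.33.

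The second Ptger3 probe set (96589_at) was far dimmer. It read 115, 44.6 and 25.6 in controls and 148, 164 and 198 in CF, again without overlap. On this probe set the log2 difference was 1.40 ± 0.58 (95% interval 0.09 to 2.71), with values below 47.6 set to that floor before log2 was taken. With the title suffix as a block the 95% interval was -0.00 to 2.81. The pairs gave 0.37, 1.78 and 2.05, so the first pair differed least. It was bright enough to be tested only through its CF arrays (3 of 3 above the limit of 140.2, against 0 of 3 controls), a choice that favours a higher value in CF, and with the floor raised to that limit the difference was 0.27. Which Ptger3 transcript forms each probe set reads is not known here.

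The thromboxane receptor gene Tbxa2r went the other way and was lower in every CF mouse. Its single probe set (92685_at) read 999, 1089 and 761 in controls and 536, 290 and 291 in CF. Here the highest CF value, that of replicate 1, was below the lowest control value, that of replicate 3. The mean was 950 ± 169 in controls and 372 ± 142 in CF, which is 2.64-fold lower in CF on the log2 scale (log2 difference -1.40 ± 0.29 SE, 95% interval -2.07 to -0.73). The pairs differed by -0.90, -1.91 and -1.39.

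**Figure D1:**
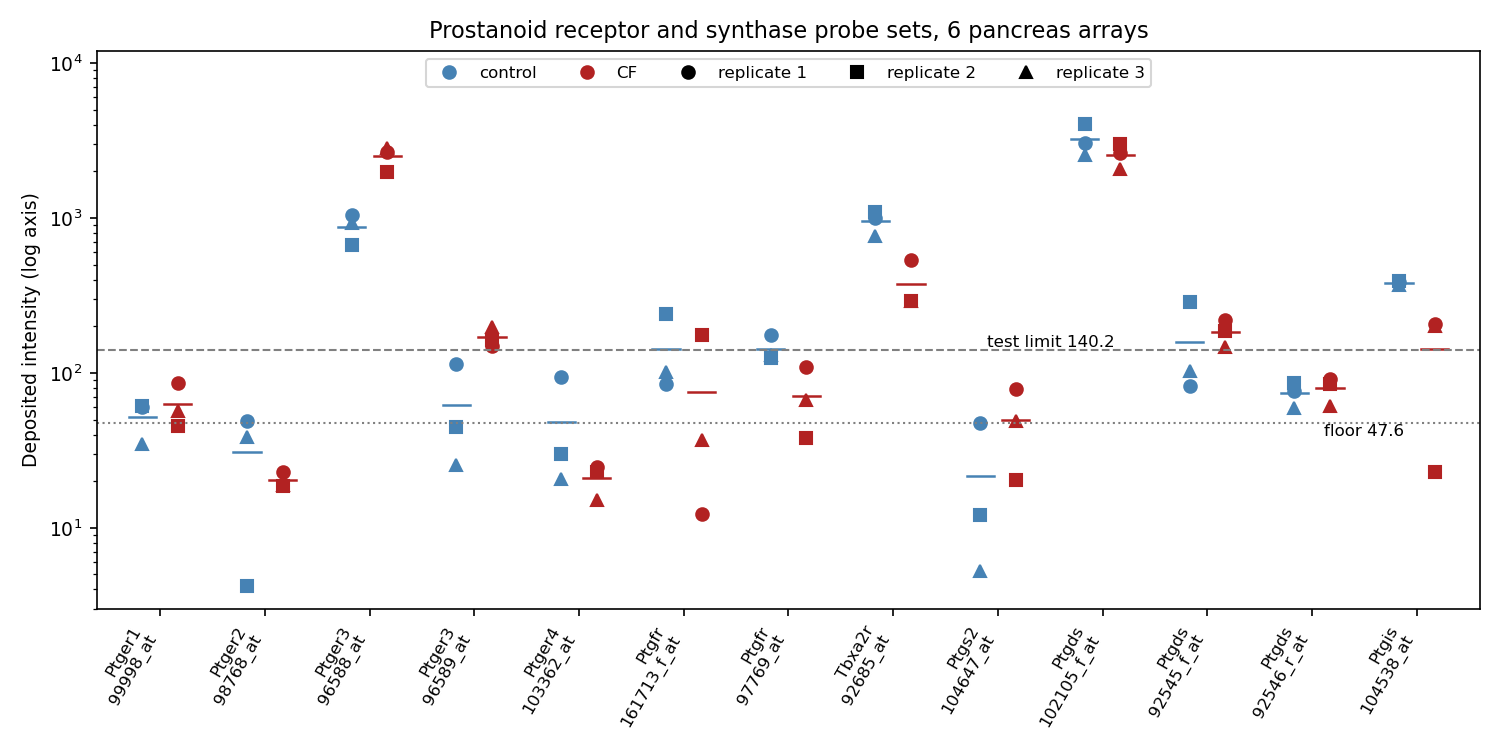
Deposited intensity (log axis) of the 13 probe sets of 9 genes on each array, with controls in blue, CF in red, a marker shape for each replicate and a bar at each group mean (n = 3); dashed and dotted lines mark the limit for testing (140.2) and the floor (47.6). Ptger3 lies higher in CF on both probe sets, Tbxa2r and Ptgis lie lower, and 7 probe sets were too dim to be tested.

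The remaining receptors for prostaglandin E were too dim to be tested, and their values are given without a fold. Ptger1, which encodes the calcium-coupled prostaglandin E receptor, read 60.3, 61.5 and 34.9 in controls and 85.7, 45.5 and 56.6 in CF, with the groups overlapping. Ptger2 read 48.9, 4.2 and 38.8 in controls and 23.0, 18.6 and 19.0 in CF, and Ptger4 read 94.5, 29.8 and 20.6 and then 24.8, 23.0 and 15.1. Of these 2 receptors that raise cyclic AMP, each lay under the floor on 5 of 6 arrays, and for both the 1 array above it was control replicate 1. Whether they differed was not detectable at these intensities.

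Ptgfr, the prostaglandin F receptor gene, had 2 probe sets near the limit for testing. The first (97769_at) read 176, 124 and 130 in controls and 109, 37.8 and 66.7 in CF, so that all CF values were below all control values, with means of 143 ± 28.2 and 71.3 ± 36.0. With no filter on dim probe sets its log2 difference was -1.01 ± 0.36. The second (161713_f_at) read 84.2, 241 and 101 in controls and 12.2, 175 and 37.1 in CF. Its groups overlapped, although in each pair the CF array was the lower one (-0.82, -0.46 and -1.09), and replicate 2 was the highest of both groups. With no filter the second gave -0.79 ± 0.71.

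Among the synthases, Ptgis, which encodes prostacyclin synthase, was lower in CF without overlap. Its probe set (104538_at) read 385, 392 and 369 in controls and 205, 23.0 and 202 in CF. The controls lay close together, while CF replicate 2 lay under the floor and far from the other 2. The mean went from 382 ± 12.0 to 143 ± 104, with a log2 difference of -1.61 ± 0.56 SE (95% interval -2.88 to -0.33). Without CF replicate 2 the difference was -0.91, without CF replicate 1 or 3 it was -1.96 or -1.95, and the pairs gave -0.91, -3.04 and -0.87. With the floor at the 40th percentile it was -1.09.

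Ptgds, the lipocalin-type prostaglandin D synthase, overlapped between the groups on all 3 of its probe sets. The bright one (102105_f_at) read 3045, 4060 and 2531 in controls and 2618, 2990 and 2084 in CF. Replicate 2 was the highest and replicate 3 the lowest in both groups, and each CF array was below the control array of its suffix, by 0.22 to 0.44 on the log2 scale. Its log2 difference was -0.31 ± 0.22 SE (95% interval -0.80 to 0.18). With the title suffix as a block the interval was -0.61 to -0.02, with a limma adjusted p of 0.41. The second (92545_f_at) read 82.1, 289 and 103 in controls and 219, 188 and 147 in CF (0.44 ± 0.54, 95% interval -0.79 to 1.66), with pairs at 1.42, -0.62 and 0.51, and 0.99 without control replicate 2. The third (92546_r_at) read 75.9, 86.2 and 59.6 and then 91.8, 84.9 and 61.2, and was not tested. The suffix f marks probes that can match several similar sequences.

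Ptgs2, the inducible cyclooxygenase, read 47.5, 12.1 and 5.3 in controls and 78.8, 20.3 and 49.0 in CF. Each CF array was above the control array of its suffix, but 4 of 6 arrays lay under the floor and the groups overlapped. No difference was detectable at these intensities.

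**Figure D2:**
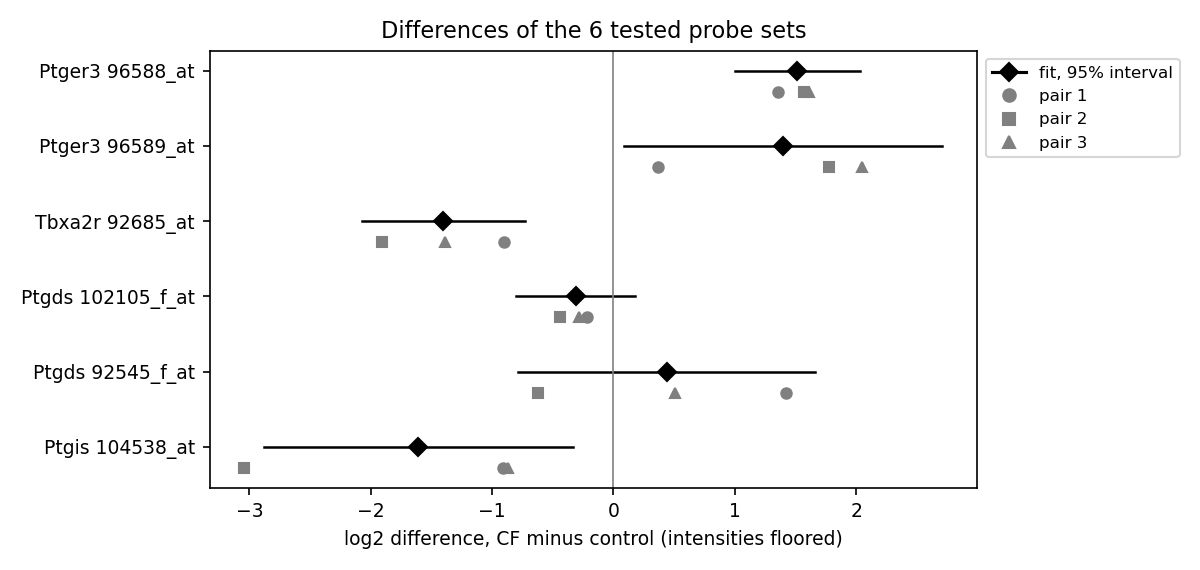
Log2 difference, CF minus control, of the 6 tested probe sets, with diamonds and lines for the estimate of the fit and its 95% interval and grey markers for the 3 pairs of arrays with the same title suffix. The 3 pairs of the brighter Ptger3 probe set lie together at 1.36 to 1.61, and those of Ptgis are spread from -3.04 to -0.87.

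Over all 13 member probe sets, 6 of 4 genes were bright enough to be tested with 7739 probe sets in all. Of the 6, both Ptger3 probe sets were higher with no overlap, Tbxa2r and Ptgis were lower with no overlap, and both of Ptgds overlapped. Among all tested probe sets 7.37% were higher and 5.62% lower with no overlap. Of the 7 untested ones 1 (Ptgfr 97769_at) did not overlap, against 9.37% of all those too dim to test. At an adjusted p under 0.05 (limma, Benjamini-Hochberg over all tested probe sets), 0 of the 6 were called, against 0.0646% of all, and at an unadjusted p under 0.05 limma counted 4 of the 6, against 7.38% of all. With the replicate suffix as a block, limma called 1, the brighter Ptger3 probe set (adjusted p = 0.040, against 0.077 without the block), where 0.129% of all were called. As the family was chosen on this contrast, nothing is read from these counts.

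**Figure D3:**
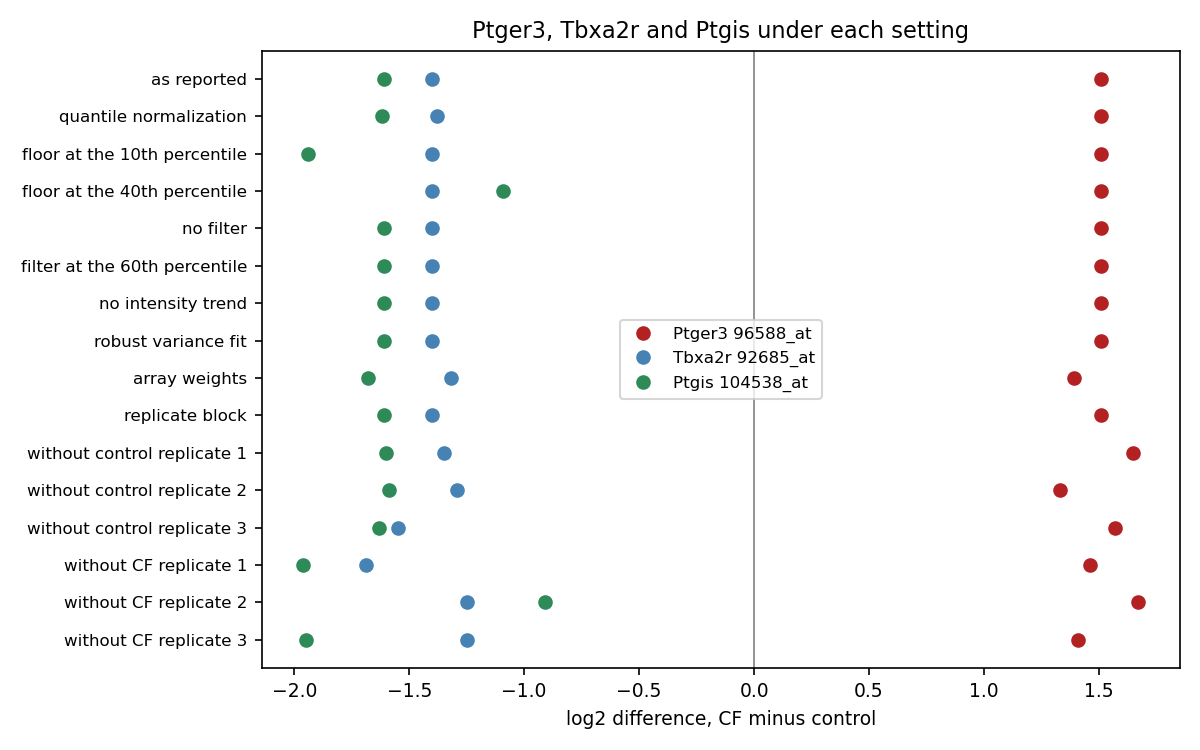
Log2 difference, CF minus control, of the brighter Ptger3 probe set and of those of Tbxa2r and Ptgis, as reported and under each alternative processing or with 1 array left out. Ptger3 stays between 1.33 and 1.67 and Tbxa2r between -1.69 and -1.25, while Ptgis reaches from -1.96 to -0.91, with -1.96 without CF replicate 1, -1.95 without CF replicate 3 and -0.91 without CF replicate 2.

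In a bulk sample, fewer cells of a type and less RNA per cell cannot be told apart, and markers of smooth muscle and endothelium, where the thromboxane receptor and prostacyclin synthase are known to be expressed, were mostly lower in CF, as Tbxa2r and Ptgis were. Of 8 smooth muscle markers, 5 were tested, 4 were lower and 0 passed, with a summed intensity of 3278 to 4519 in controls and 2638 to 2850 in CF. Acta2, the smooth muscle actin, read 1007, 330 and 589 in controls and 73.1, 98.7 and 76.7 in CF. It was bright enough to be tested only through its control arrays, a choice that favours a lower value in CF. The myosin light chain kinase gene Mylk differed by -0.43 ± 0.22 (log2), while the intermediate filament gene Des differed by 0.36 ± 0.58. Of 9 endothelial markers, 7 were tested, 6 were lower and 0 passed, with sums of 2543 to 3064 and 1799 to 2430. Eng, a coreceptor for transforming growth factor beta, read 1243, 991 and 996 in controls and 424, 690 and 866 in CF, and the sialomucin gene Emcn differed by -0.78 ± 0.32, while the growth factor receptor gene Kdr differed by 0.18 ± 0.33. Among platelet markers 5 had a probe set and 1 was tested (Pf4, 0.03 ± 0.43), and their sums overlapped, at 441 to 676 in controls and 466 to 803 in CF. None of the markers of these 3 lists was under the floor on all arrays. The smooth muscle and endothelial lists had median log2 differences of -0.31 and -0.34. Lists of other cell types were lower still, among them fibroblast and stellate (-0.49), adipocyte (-0.79), macrophage (-0.80) and B lymphocyte (-0.86). Duct, islet and platelet lists had medians of 0.62, 0.05 and 0.03. The part of smooth muscle, endothelium and platelets in the lower Tbxa2r and Ptgis was not tested.

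Beside Ptger3, epithelial, islet and fat cell markers were considered. Duct markers were higher for 7 of 7 tested, 0 of them past the threshold. The sums of the 8 duct markers with a probe set, tested or not, overlapped, at 14530 to 19752 in controls and 18506 to 22647 in CF. The brightest of them, Muc1, had means of 9557 in controls and 10367 in CF and so weighs most in these sums. The duct markers of smallest p were the epithelial transcription factor gene Elf3 (0.92 ± 0.16) and the keratin gene Krt18 (0.62 ± 0.16). Cldn4 and Epcam differed by 1.58 ± 0.54 and 0.66 ± 0.29. These 4 of the 7 were higher with no overlap, against 7.37% of all tested probe sets. The other tested duct markers, the keratin genes Krt8 and Krt19 and the mucin gene Muc1, overlapped between the groups. They differed by 0.04 ± 0.22, 0.04 ± 0.34 and 0.13 ± 0.18. Islet markers, where the Ptger3 receptor has its known role, were higher for 4 of 7 tested, and their sums overlapped widely (19126 to 77418 and 22306 to 59327). The insulin gene Ins2 read 16744, 69135 and 48284 in controls and 18824, 30857 and 53156 in CF. The hormone genes Ppy and Sst differed by 0.18 ± 0.22 and 0.23 ± 0.66 (log2), and the prohormone convertase gene Pcsk1 by -0.07 ± 0.67. Adipocyte markers were lower for 6 of 7 tested, 0 of them past the threshold, with sums of 6677 to 16913 in controls and 5624 to 7458 in CF. The fat cell hormone genes Adipoq and Retn differed by -3.26 ± 1.30 and -1.94 ± 0.84, and the lipase gene Lipe by 0.57 ± 0.64, all with overlapping groups. Adipoq varied widely among controls, at 5591, 187 and 1899, and read 721, 54.2 and 58.2 in CF. The part of these cell types in the higher Ptger3 was not tested.

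The remaining lists gave 0 members past the threshold. Markers were lower in CF for 8 of 9 tested fibroblast and stellate cell genes, 7 of 8 macrophage genes, 6 of 6 B lymphocyte genes, 3 of 5 mast cell genes, 3 of 4 mesothelial genes, 3 of 3 neural and Schwann cell genes (Ptgds among them), 1 of 2 T lymphocyte genes and 4 of 4 acinar genes. Median log2 differences of these lists were -0.49, -0.80, -0.86, -0.33, -0.52, -0.20, -0.01 and -0.24, in that order.

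The other genes of the pathway were taken from 5 lists, of which 63 genes were bright enough to be tested. Limma called 0 of them, and 4 had an unadjusted p under 0.05 (6.35%, against 7.49% of all 5804 tested genes). Of the 63, 26 were higher and 37 lower in CF, with a median of -0.13 where that of all tested genes was -0.00. In 5 of them (7.94%) the groups did not overlap, against 13.2% of all tested genes.

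Among the further prostanoid synthases, receptors and breakdown enzymes, 8 of 9 tested genes were lower in CF, with a median of -0.16. Ptges, the inducible prostaglandin E synthase, read 481, 427 and 222 in controls and 348, 102 and 47.0 in CF, and was lower in each pair although the groups overlapped (log2 difference -1.58 ± 0.69 SE, limma adjusted p = 0.67). Single arrays moved it, to -2.36 without CF replicate 1 and -0.92 without CF replicate 3. Ptgdr2, a prostaglandin D receptor of immune cells, read 1309, 1330 and 1296 in controls and 1186, 960 and 1117 in CF. Its groups did not overlap, but the difference was small (-0.28 ± 0.17, limma adjusted p = 0.77). Tbxas1, which makes the thromboxane that Tbxa2r binds, differed by 0.10 ± 0.18 (95% interval -0.31 to 0.51). Ptgir, the prostacyclin receptor, read 198, 216 and 218 in controls and 329, 246 and 82.9 in CF, so that both higher and lower values than in the controls occurred in CF.

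The lists upstream of the cyclooxygenases and beside them had medians near those of all genes. Of 12 tested genes of arachidonate release 5 were higher and 7 lower (median -0.06, lowest limma adjusted p = 0.76). Acsl4, which couples arachidonic acid to coenzyme A, and the monoacylglycerol lipase gene Mgll differed by 0.66 ± 0.38 and 0.34 ± 0.21. The phospholipase gene Pla2g10 and the triglyceride lipase gene Pnpla2 differed by -0.24 ± 0.32 and -0.14 ± 0.24. Of 9 tested lipoxygenase, leukotriene and epoxygenase genes 6 were higher and 3 lower (median 0.03, lowest limma adjusted p = 0.79). The lipoxygenase gene Alox12 and the dipeptidase gene Dpep1, whose enzyme trims leukotrienes, differed by 0.71 ± 0.47 and 0.96 ± 0.78. Leaving out control replicate 1 gave 1.92 for Dpep1, and leaving out control replicate 3 gave 0.46. The lipoxygenase gene Alox12e differed by -0.32 ± 0.30 and the leukotriene C synthase gene Ltc4s by -0.14 ± 0.19.

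Downstream of the receptors, 10 of 22 tested G protein, adenylyl cyclase and protein kinase A genes were higher and 12 lower (median -0.14, lowest limma adjusted p = 0.52). Gnas, the stimulatory G protein subunit through which Ptger2 and Ptger4 raise cyclic AMP, read 13587, 12347 and 15469 in controls and 7151, 8383 and 11923 in CF, a difference of -0.62 ± 0.20 without overlap. Gna11, a subunit that couples receptors to calcium, read 142, 364 and 174 in controls and 57.5, 97.3 and 119 in CF (-1.25 ± 0.54). It was bright enough to be tested only through its control arrays, a choice that favours a lower value in CF. With the floor raised to the limit for testing, the Gna11 difference was -0.57. Adcy6, an adenylyl cyclase that inhibitory G proteins restrain, read 803, 615 and 880 in controls and 971, 1253 and 1384 in CF (0.65 ± 0.22), also without overlap. Prkar2a, a regulatory subunit of protein kinase A, differed by 0.80 ± 0.44. Of 11 tested genes of the CREB family and its cyclic AMP targets 4 were higher and 7 lower (median -0.13, lowest limma adjusted p = 0.84). The phosphatase gene Dusp1 and the clock gene Per1 differed by -0.45 ± 0.38 and -0.56 ± 0.51. The G protein regulator gene Rgs2 differed by 0.92 ± 0.82, with 896 in CF replicate 2 and 64.8 in CF replicate 3 (0.00 without the former and 1.90 without the latter), and Creb1 itself by 0.24 ± 0.53.

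**Figure D4:**
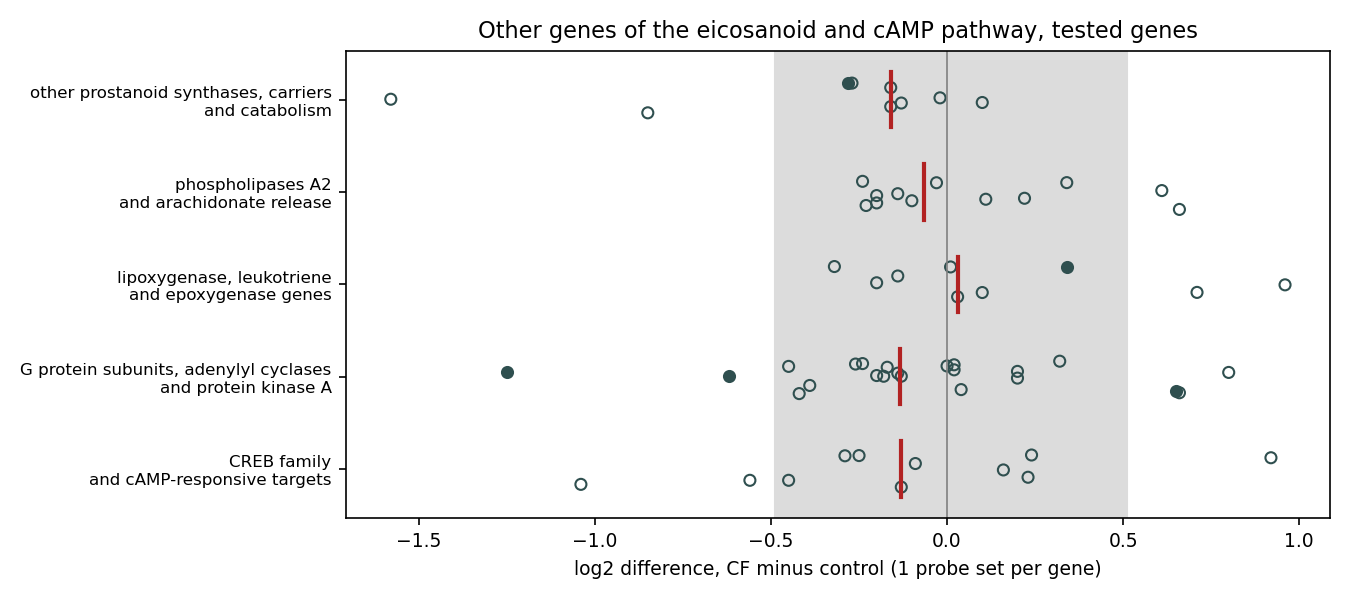
Log2 difference, CF minus control, of the 63 tested genes of the 5 pathway lists (1 probe set per gene), with filled circles where the groups did not overlap, a red line at each list's median and a grey band from the 10th to the 90th percentile of all tested genes (-0.49 to 0.51). The medians lie between -0.16 and 0.03, and Ptges and Gna11 (tested only through its control arrays) lie furthest to the left.

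Genes whose intensities ran most like those of the 2 receptors were sought over the 6 arrays. For the brighter Ptger3 probe set these were Umps, a pyrimidine synthesis enzyme (Pearson r = 0.986), Mettl1, a transfer RNA methyltransferase (0.978), and Mkrn1, a ubiquitin ligase (0.975). Umps read 98.0, 45.0 (under the floor) and 60.3 in controls and 244, 160 and 249 in CF, with replicate 2 lowest in each group as for Ptger3. For Tbxa2r they were the aldehyde oxidase gene Aox1 (0.981), Slfn4 (0.981) and the lens crystallin gene Cryge (0.978). Aox1 read 282, 291 and 216 in controls and 87.1, 37.2 and 57.5 in CF. Umps and Mettl1 were above the limit for testing only on CF arrays, and Aox1 and Slfn4 only on control arrays. That choice favours genes that differ between the groups in the same direction as the receptor. Over 6 arrays r takes in the difference between the groups, and 30 and 20 probe sets of other genes exceeded 0.95 for Ptger3 and Tbxa2r.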

How the data were processed

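The deposited table holds linear intensities, 1 for each probe set on each array. The authors' scaling and software are not given in any source at hand. Means of each array's values without the outer 2% at each end lay between 499.9 and 500.2, so the arrays were kept as scaled. The 66 control probe sets were left out. Values below 47.6 (the 20th percentile over all arrays) were raised to it before log2 was taken. Probe sets with at least 3 of 6 arrays above 140.2 (the 40th percentile) were tested with limma 3.58.1 in R 4.3.3, CF against control, with an intensity trend and Benjamini-Hochberg adjustment, at a threshold of 0.05. The fit was also run on simulated data, with changes planted only in brighter probe sets and no pairing of arrays, so that run does not bear on the dim members. Each array is 1 mouse, so the spread is that between mice.

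Groups came from the genotype in the descriptions. Arrays with the same title suffix deviated together from their group means (r = 0.23 to 0.26), so the suffix was taken as a pairing. The other array pairs had r of -0.18 to -0.05. Deviations from a group mean cancel within the group, so these negative values follow from the positive ones and add no support. The fit without the suffix was the main one, and the suffix as a block was an alternative. Differences, SEs and intervals come from the main fit unless the block is named. Of the probe sets, 10855 had 1 symbol, 396 several and 1237 none, and 10839 were matched to RefSeq names (GRCm38.p6).

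The members and lists were chosen with earlier results of these data known. Every member probe set is given. Of each list, genes past the threshold, or else the 2 of smallest p per direction, are named (for marker lists, only where values stand beside a member's). Each list gene is represented by its brightest tested probe set. The summed intensities of a marker list take the brightest probe set of every listed gene on the array, tested or not. Likeness took 3 genes per receptor. Ptgir, Krt8, Krt19, Cldn4, Epcam, Muc1 and the remarks on which replicate was highest or lowest were chosen after the values were seen.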

Additional observations from a re-analysis of the deposited data

How the results depend on the processing

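The fit was repeated with quantile normalization, 2 other floors, no filter and a stricter one, without the trend, with a robust variance, with array weights, with the replicate block, at another threshold, and without each array. The number of member probe sets called was 0 as reported, where 0.0646% of all were called, and 1 with the replicate block, where 0.129% were. At an adjusted p under 0.1 it was 1, and the share of all at that threshold was not counted. In both cases this was the brighter Ptger3 probe set, at rank 10 by limma p among the 7739 tested in the fit as reported. Under each of the others 0 were called, and the limma adjusted p of that probe set ran up to 0.33 (no filter). The block changed no other member's call, and 0 pathway genes were called under any alternative. All 6 tested member probe sets kept their direction wherever they could be tested. With an array left out, 3 named pathway genes changed direction: Pla2g10 ranged from -0.43 to 0.01, Pnpla2 from -0.41 to 0.05 and Creb1 from -0.39 to 0.56. The median of the arachidonate release list was -0.06 as reported and 0.03 to 0.09 without a control array, with the stricter filter or with array weights, and that of the CREB list was -0.13 and, with the stricter filter, -0.45. The median of the other prostanoid genes was -0.16 and, without CF replicate 1, -0.32, and that of the G protein list was -0.14, and -0.06 and -0.05 without control replicate 1 and CF replicate 2. The causes were not tested. Intensities near the floor limit what can be said of Ptger1, Ptger2, Ptger4, Ptgs2 and Ptgfr.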
